A study of Drosophila melanogaster with 9 samples.

Results

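The proteasome of Drosophila melanogaster is built from main subunits that every tissue uses, and several of these subunits have a second gene, a copy, whose name carries a T for testis or an R for related. Chosen by gene name were the 9 copies Prosalpha3T, Prosalpha4T1, Prosalpha4T2, Prosalpha6T, Rpn12R, Rpn13R, Rpt3R, Rpt4R and Rpt6R, of 17759 genes in the count table, read beside the male-specific RNA roX1. Each library was made from RNA of 10 pooled whole larvae of the third instar, collected as wanderers, that is, when they leave the food to pupate. Larvae had been reared on a diet of sugar and yeast at 5 eggs/ml (low density), at 60 eggs/ml (medium density) or at 300 eggs/ml (high density), and 3 replicate pools were taken at each. Newly hatched larvae had been counted and assigned to the densities at random, per the labels. The labels give neither the strain nor the sex of the larvae, and they do not say whether the 3 pools of a density came from separate cultures. If they did not, the p-values measure the spread between these pools alone. Because each library holds whole animals, fewer cells of a type and less RNA per cell cannot be told apart.

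The 26S proteasome is the machine that degrades proteins tagged with ubiquitin. Its core is a barrel of outer alpha rings and inner beta rings, in which beta subunits carry the cutting sites and alpha subunits form the gate. A regulatory cap sits on the barrel, where Rpt subunits are ATPases that unfold the substrate and Rpn subunits do not hydrolyse ATP. In flies several duplicated subunits are known to be made in the male germ line, and Prosalpha6T is needed for male fertility. The testis of a third-instar larva already contains spermatocytes, the cells that enter meiosis. The RNA roX1 is part of the complex that raises transcription of the single X chromosome in males, and it is used as a marker of male tissue.

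Each library held 16822606 to 25141308 counts in total. Values are given as CPM, the count of a gene relative to the size of its library, scaled with TMM factors, which ranged from 0.906 to 1.143 (TMM is a scaling that takes most genes as unchanged). All 9 copies passed the filter on low counts, as did 12883 genes in all. Their counts were whole numbers in every library, so no fraction of a read with several positions had been added to them. They ranged from 21 counts (Prosalpha3T, medium replicate 3) to 1238 counts (Rpt6R, high replicate 3), against a floor of 3 counts, or 0.106 to 0.156 CPM. Several copies were thus measured on few reads at medium density, while Rpt6R had at least 633 counts in every library.

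In the genome (Release 6, dm6) the copies lie apart from the subunits they resemble. Of the 9 copies, 7 are on another chromosome arm than their main subunit, 8 are autosomal, and 5 are autosomal copies of a subunit whose main gene is on the X chromosome. These 5 are Prosalpha4T1, Prosalpha4T2, Rpt3R, Rpt4R and Rpt6R. Rpn13R is the 1 copy on the X itself, and its main gene Rpn13 is on 2R. The annotation gives 5 copies a single exon block, and 6 copies fewer exon blocks than the main subunit. Among the alpha copies, Prosalpha3T (FBgn0261395, 3R:31122527-31123415, minus strand), Prosalpha4T1 (FBgn0265606, 3R:20748184-20749074, minus strand) and Prosalpha6T (FBgn0032492, 2L:13232039-13233058, plus strand) have 1 exon block each, where Prosalpha3, Prosalpha4 and Prosalpha6 have 3. Prosalpha4T2 (FBgn0017556, 2R:24500780-24502277, minus strand) has 3 exon blocks, as Prosalpha4 has. The Rpn copies Rpn12R (FBgn0036465, 3L:15041631-15042570, minus strand) and Rpn13R (FBgn0029745, X:5131898-5132985, plus strand) have 1 exon block each, and both lie within the span of longer genes on the same strand without touching their exons, Rpn12R within Sytbeta and Rpn13R within CG15465 and rg. The ATPase copies are Rpt3R (FBgn0037742, 3R:9754735-9756510, minus strand), Rpt4R (FBgn0036224, 3L:11941912-11943485, plus strand) and Rpt6R (FBgn0039788, 3R:30582198-30583697, minus strand). On the opposite strand, CG42322 overlaps Prosalpha4T1 and CG8412 overlaps Rpt3R, and the authors' counting used strand.

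The copies of alpha ring subunits shared 1 pattern over the densities, with the lowest levels at medium density. Prosalpha3T, the copy of the alpha3 subunit, measured 5.04, 4.398 and 5.82 CPM at low density, 2.45, 4.11 and 1.05 CPM at medium density and 4.64, 7.28 and 10.7 CPM at high density. High replicate 3 was the highest library and medium replicate 3 the lowest, and no medium library reached the lowest low or high library. Prosalpha4T1, one of the copies of the alpha4 subunit, measured 6.39, 9.05 and 6.904 CPM at low density, 2.31, 4.52 and 1.15 CPM at medium density and 8.69, 12.2 and 13.7 CPM at high density. The other alpha4 copy, Prosalpha4T2, measured 7.73, 9.97 and 6.68 CPM at low density, 4.33, 5.63 and 3.05 CPM at medium density and 8.15, 13.997 and 15.05 CPM at high density. For both, every medium library was below every low and high library. Prosalpha6T, the copy of the alpha6 subunit, measured 10.9, 11.4 and 10.4 CPM at low density, 4.71, 6.97 and 2.896 CPM at medium density and 9.37, 17.1 and 19.2 CPM at high density. Here high replicate 1 was below the 3 low libraries, so low and high overlapped while medium stood below both.

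The copies in the regulatory cap behaved alike, with the exception of Rpt6R. Rpn12R, the copy of a subunit of the lid, measured 16.1, 20.02 and 12.8 CPM at low density, 6.44, 10.6 and 4.19 CPM at medium density and 11.9, 20.9 and 24.9 CPM at high density. Rpn13R, the copy of a ubiquitin receptor, measured 4.52, 6.45 and 5.01 CPM at low density, 2.16, 3.22 and 1.85 CPM at medium density and 4.94, 7.86 and 8.37 CPM at high density. In both, high replicate 3 was the highest library, medium replicate 3 the lowest, and the medium libraries lay below all others. The ATPase copy Rpt3R measured 21.4, 26.2 and 16.8 CPM at low density, 9.23, 13.1 and 7.64 CPM at medium density and 16.8, 23.9 and 27.1 CPM at high density. The ATPase copy Rpt4R measured 14.7, 19.7 and 11.1 CPM at low density, 5.58, 8.81 and 4.69 CPM at medium density and 12.7, 19.2 and 20.9 CPM at high density. Low replicate 2 was close to high replicate 3 in both, and the medium libraries again lay below all others. Rpt6R, a further ATPase copy, measured 45.5, 42.8 and 45.8 CPM at low density, 30.5, 33.1 and 31.6 CPM at medium density and 26.9, 35.7 and 43.7 CPM at high density. Low replicate 3 was its highest library and high replicate 1 its lowest, the medium libraries overlapped with the high ones, and high replicate 3 reached the range of the low libraries.

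**Figure D1:**
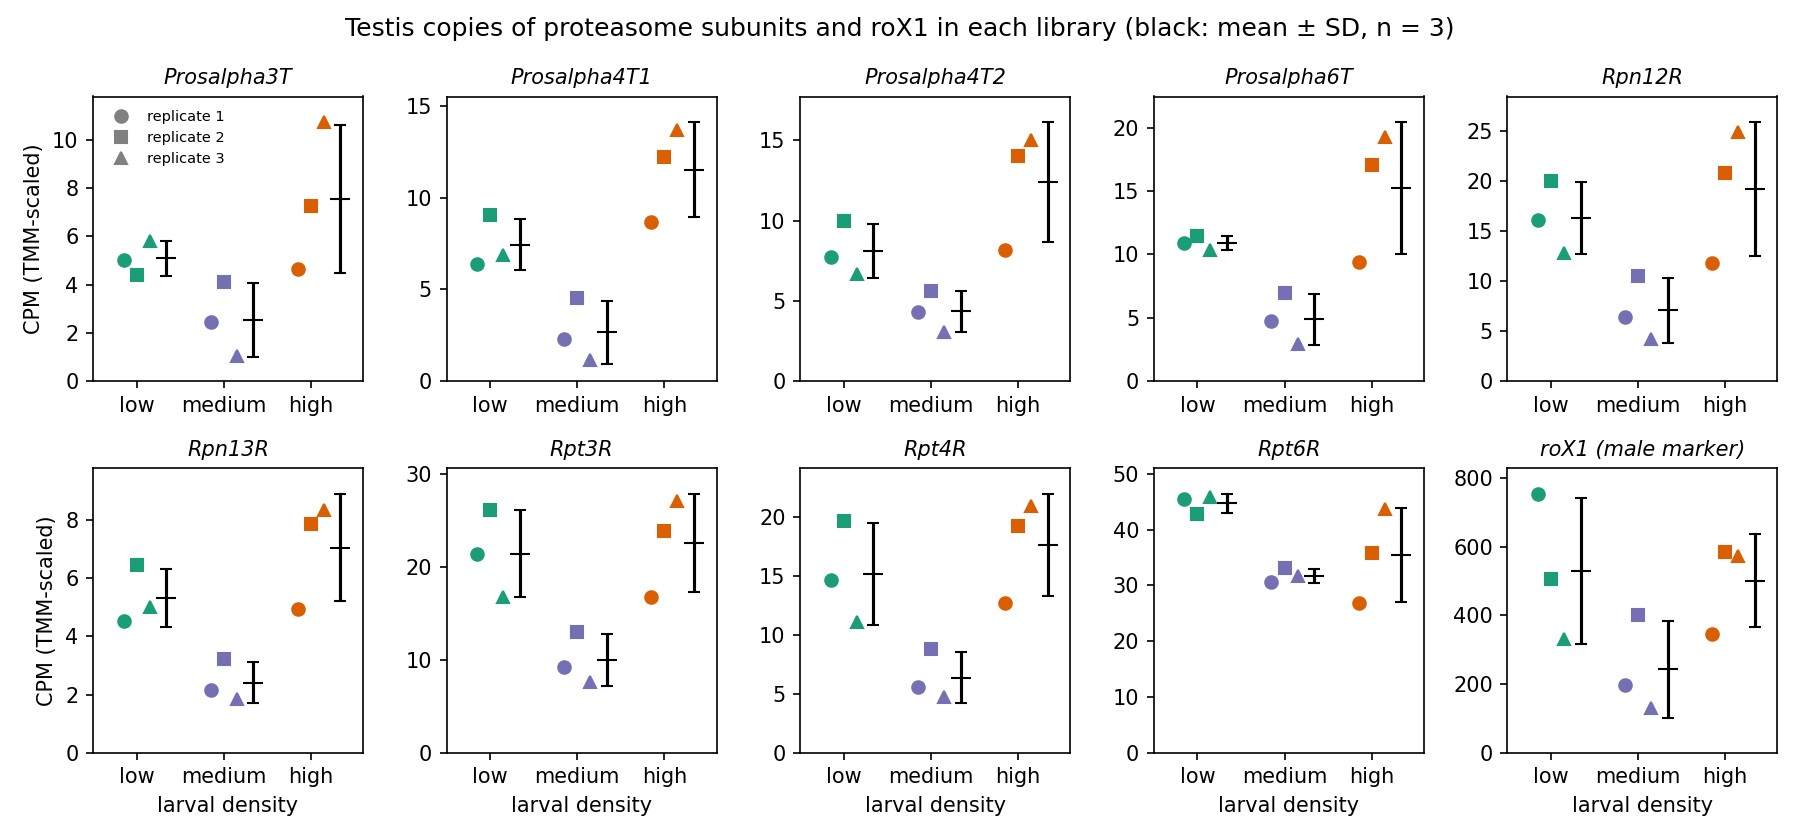
CPM (TMM-scaled, linear axis from 0) of each of the 9 copies and of roX1 in the 9 libraries, by larval density; symbols mark the replicate number, and black bars give the mean and SD of 3 libraries. In 8 copies the medium libraries lie below all low and high libraries, while the medium and high libraries of Rpt6R overlap, and roX1 overlaps between all densities.

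Per kilobase of exon, which allows levels of different genes to be compared, Rpt6R was the most abundant copy at each density, with 30.96 ± 1.16 CPM per kb at low, 21.96 ± 0.891 at medium and 24.5 ± 5.83 at high density (SD, n = 3). Rpn12R followed with 17.3 ± 3.84, 7.51 ± 3.43 and 20.4 ± 7.103 CPM per kb. Rpt3R was next with 14.8 ± 3.23, 6.87 ± 1.92 and 15.6 ± 3.65 CPM per kb. Rpt6R stood above Rpn12R in 9 of 9 libraries, without overlap at low and medium density and with overlap at high density, and Rpn12R and Rpt3R overlapped at each density. Below these, the order by mean level over all 9 libraries was Prosalpha6T, Rpt4R, Prosalpha4T1, Prosalpha4T2, Prosalpha3T and Rpn13R. The ranges of neighbours in it overlapped within each density. Library by library, Prosalpha6T was above Rpt4R in 7 of 9, and Rpt4R above Prosalpha4T1 in 5 of 9. Prosalpha4T1 was above Prosalpha4T2 in 7 of 9, Prosalpha4T2 above Prosalpha3T in 6 of 9, and Prosalpha3T above Rpn13R in 7 of 9. Rpn13R was the least abundant at each density, with 4.895 ± 0.923, 2.21 ± 0.6602 and 6.48 ± 1.702 CPM per kb.

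Between high and medium density, 8 of the 9 copies were higher at high density past the threshold (edgeR quasi-likelihood test, Benjamini-Hochberg adjusted p under 0.05 over all 12883 genes), where 21.3% of all genes tested were called higher, 18.3% lower and 39.6% in either direction. The rises were 2.26-fold (Rpt3R) to 4.31-fold (Prosalpha4T1). The median log2 fold change was 1.51 over the 9 copies and 0.007 over all genes. In the same 8 copies the high and medium libraries did not overlap, as was so for 24.9% of all genes in this direction. Prosalpha4T1 rose the most, with a log2 fold change of 2.11 (SE 0.42, adjusted p 0.00909 by edgeR). The other alpha copies rose by 1.64 (Prosalpha6T, SE 0.34, adjusted p 0.00985 by edgeR), 1.57 (Prosalpha3T) and 1.51 (Prosalpha4T2) on the log2 scale, with edgeR adjusted p of 0.0275 and 0.00893 for Prosalpha3T and Prosalpha4T2. In the cap, Rpn13R rose by 1.54 (SE 0.29, adjusted p 0.00751 by edgeR), Rpt4R by 1.47 (SE 0.31, adjusted p 0.01 by edgeR), Rpn12R by 1.44 (SE 0.37, adjusted p 0.0178 by edgeR) and Rpt3R by 1.18 (SE 0.26, adjusted p 0.0112 by edgeR). Rpt6R was not called, with 0.16 (SE 0.15, adjusted p 0.44 by edgeR). The call of Prosalpha3T was lost without medium replicate 1, medium replicate 3, high replicate 2 or high replicate 3, and that of Rpn12R without medium replicate 1, medium replicate 3 or high replicate 2 (edgeR adjusted p 0.0505 to 0.0829 over these fits), while the other 6 were called in each fit that left out 1 library. Without high replicate 1, all 9 copies were called.

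Between medium and low density, edgeR called 0 of the 9 copies and 0 of the 12883 genes, which is 0% of all genes. At an unadjusted p under 0.05 there were 8 of the 9 copies and 3223 genes, DESeq2 called 6 copies and 12.2% of all genes, and limma voom called 0 copies. All 9 copies had a negative log2 fold change, from -1.48 in Prosalpha4T1 to -0.49 in Rpt6R, with a median of -1.14 against 0.02 over all genes. Their edgeR adjusted p ran from 0.13 to 0.219. In 9 of 9 copies every medium library was below every low library, which held in this direction for 22.2% of all genes. Without medium replicate 2, the medium library with the highest level of each copy, edgeR called 6 of the 9 copies lower and 8.34% of the 13114 genes tested in that fit.

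Between high and low density, edgeR called 0 of the 9 copies, where 15.2% of all genes were called. By edgeR, 0 of the 9 had an unadjusted p under 0.05, and DESeq2 and limma voom also called 0. The log2 fold changes ran from -0.33 in Rpt6R to 0.63 in Prosalpha4T1, with a median of 0.40 against 0.06 over all genes, and edgeR adjusted p from 0.184 to 0.861. The standard errors ran from 0.15 to 0.44. Prosalpha4T2 was not called at a log2 fold change of 0.61 (SE 0.29, adjusted p 0.203 by edgeR). Differences well above the standard error could thus be missed with these pools. The high and low libraries overlapped in 9 of 9 copies, while over all genes 13.4% stood apart with high density above and 19.6% with high density below. Without high replicate 3, Rpt6R alone was called, lower at high density by a log2 fold change of -0.52 (edgeR adjusted p 0.0159). This comparison and that of high with medium density use the same high libraries, and that of medium with low density shares its libraries with both. A joint test for any difference among the 3 densities called 7 of the 9 copies, where 33.6% of all genes were called, and missed Prosalpha3T (edgeR adjusted p 0.0667) and Rpt6R (edgeR adjusted p 0.0709). That count was 0 without medium replicate 1 or high replicate 2, 1 without medium replicate 3 and 4 without low replicate 1. The joint count over all genes also went down in some fits without a library, and the cause was not tested.

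The main subunits, by contrast, were lower at high density. All 33 main subunits had a negative log2 fold change at high density against either other density (32 of 33 against medium density with library totals alone). The test called 21 of them lower against low density, where 1422 of 12883 genes were called lower. Against medium density it called 31 of them lower, where 18.3% of all genes were called lower. Their median log2 fold change was -0.32 against low and -0.35 against medium density, and the largest fall was in Rpn3, a subunit of the lid, with -0.52 (SE 0.07, adjusted p 0.00411 by edgeR) and -0.53 (SE 0.07, adjusted p 0.00317 by edgeR). Rpt3, the main partner of Rpt3R, measured 319, 315 and 313 CPM at low density, 337, 309 and 315 CPM at medium density and 271, 231 and 224 CPM at high density. Prosalpha3, the main partner of Prosalpha3T, measured 299, 294 and 286 CPM at low density, 325, 312 and 308 CPM at medium density and 277, 234 and 235 CPM at high density. In both, the high libraries lay below all others. Between medium and low density, edgeR called 0 of the 33, with 1 at an unadjusted p under 0.05, DESeq2 called 1 and limma voom 0. In 10 of the 33, every medium library was above every low library, which held for 2350 of 12883 genes. The size of the fall depended on scaling: with library totals alone, 8 main subunits were called lower against low and 5 against medium density, and with upper-quartile factors 9 and 20. With roX1 as a covariate 2 were called lower against medium density, where 876 of all genes were called in either direction in place of 5102. Library totals left 8 of 9 copies called higher against medium density, and they moved the median of all genes by 0.15 and 0.25 on the log2 scale. The count of 21 was 4, 5 and 5 without low replicate 1, 2 or 3 and 7 without high replicate 2. It was 1 in the fit of only the groups compared and 0 with libraries scaled to roX1. Over all genes, 1961 calls in either direction against low density became 978 and 215 in these 2 settings. The count over all genes also went down in some fits without a library.

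**Figure D2:**
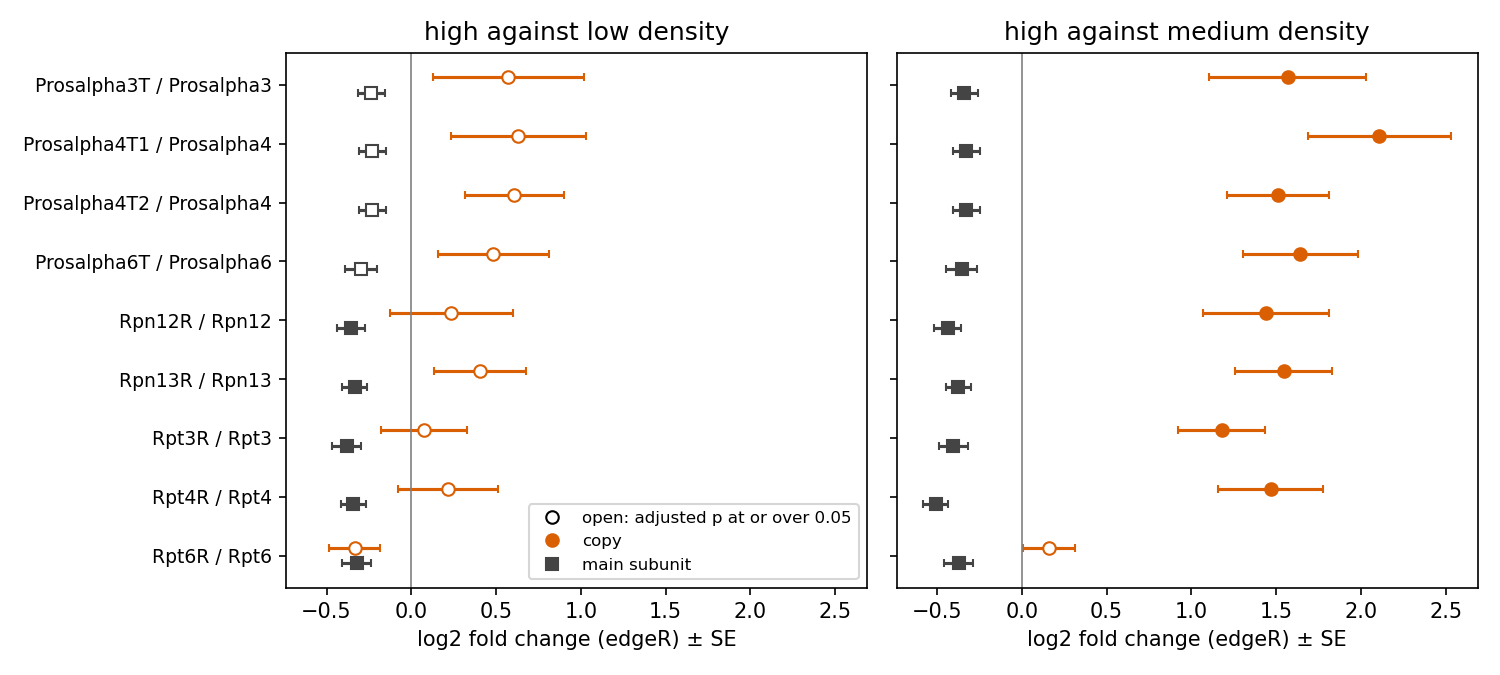
Log2 fold changes (edgeR, bars give the SE, 3 libraries at each density) of each copy (orange circles) and its main subunit (dark squares) for high against low density on the left and high against medium density on the right; open symbols have an adjusted p at or over 0.05. Against medium density 8 copies lie between 1.18 and 2.11 while their main subunits lie below 0, and against low density no copy is called. Both panels use the same high libraries.

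The level of each copy relative to its main subunit in the same library depends on the scaling of that library only through the prior count. Per kilobase, the copies stayed far below the main subunits. Prosalpha4T1 stood at 4.03% ± 0.795 of Prosalpha4 at low, 1.33% ± 0.835 at medium and 7.45% ± 2.197 at high density (SD, n = 3). Rpn12R reached 9.02% ± 1.85, 3.69% ± 1.65 and 14.02% ± 5.85 of Rpn12. Rpt3R stood at 7.27% ± 1.58, 3.35% ± 1.03 and 10.2% ± 3.23 of Rpt3. In all 3, the order of the means was medium, low, high. Prosalpha3T, the smallest share, was at 1.903% ± 0.301, 0.881% ± 0.538 and 3.41% ± 1.58 of Prosalpha3. The shares of Prosalpha4T2, Prosalpha6T, Rpn13R and Rpt4R had means of 3.12%, 3.59%, 3.62% and 5.67% at low density, 1.55%, 1.53%, 1.58% and 2.14% at medium density and 5.71%, 6.36%, 6.11% and 8.51% at high density. Rpt6R, the highest share at low and medium density, was at 13.4% ± 0.614, 9.16% ± 0.458 and 13.6% ± 4.42 of Rpt6.

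An exact permutation test over the 3 densities (1680 assignments of the 9 libraries, F statistic, smallest possible p 0.00357) was run on the log2 ratio of copy to main subunit for 9 pairs, without adjustment. The exact p was under 0.05 in 8 pairs. The pairs are not independent, since they share the 9 libraries, and Prosalpha4T1 and Prosalpha4T2 share Prosalpha4. Ratios of other genes were not put through this test. In the joint edgeR test of levels, 6180 of 12883 genes had an unadjusted p under 0.05. The exact p was 0.00357 for Prosalpha4T1, 0.00714 for Prosalpha4T2, Rpn13R and Rpt4R, 0.0107 for Rpn12R and Rpt3R, and 0.0143 for Prosalpha3T and Prosalpha6T. For Rpt6R it was 0.193 in the same exact test. From medium to high density the log2 ratio was higher by 2.59 in Prosalpha4T1, by 1.997 in Prosalpha3T, by 1.59 in Rpt3R and by 0.51 in Rpt6R. The shares at high and medium density did not overlap in 8 pairs. Rpt6R was the exception, with 8.67% to 9.58% of Rpt6 in the medium libraries and 8.89% to 17.7% in the high libraries. Leaving out 1 library at a time, 6 to 9 pairs had an exact p under 0.05.

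**Figure D3:**
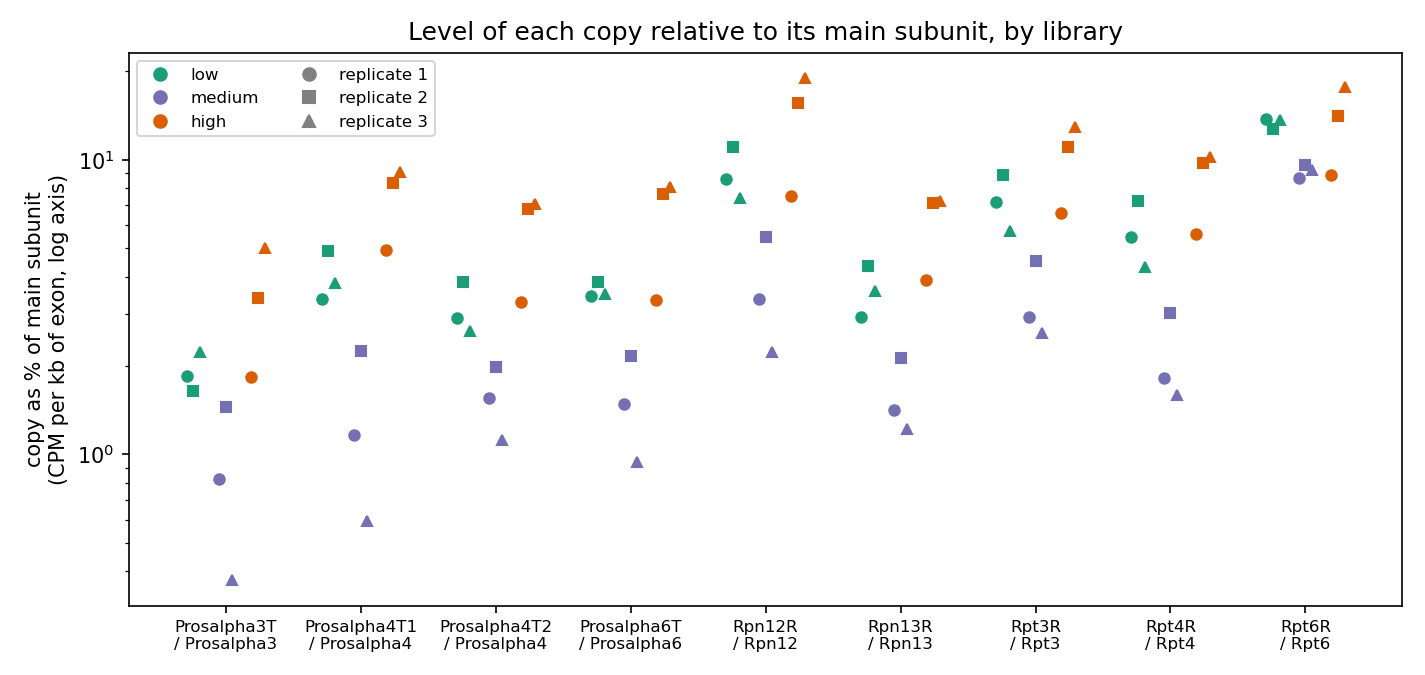
Level of each copy as a percentage of its main subunit (CPM per kb of exon, log axis) in each of the 9 libraries, with colours for density and symbols for replicate number. In 8 pairs the medium libraries lie below all high libraries, and in Rpt6R the medium and high libraries overlap.

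The male marker roX1 also had its lowest mean at medium density. It measured 754, 506 and 330.0 CPM at low density, 196, 402 and 131 CPM at medium density and 346, 585 and 574 CPM at high density. The related male RNA roX2 measured 37.1, 24.6 and 15.1 CPM at low density, 8.89, 20.1 and 6.14 CPM at medium density and 15.2, 26.2 and 25.5 CPM at high density. For both, medium replicate 3 was the lowest library and low replicate 1 the highest, and the 3 densities overlapped. The edgeR test called 0 of these 2 RNAs in each comparison, and DESeq2 called 1 of them, higher at high than at medium density, where limma voom called 0. Between high and medium density roX1 had a log2 fold change of 1.05 (SE 0.45, adjusted p 0.0933 by edgeR) and roX2 of 0.93 (SE 0.47, adjusted p 0.151 by edgeR), 1 of them at an unadjusted p under 0.05. Between medium and low density the values were -1.13 (SE 0.45, adjusted p 0.167 by edgeR) for roX1 and -1.13 (SE 0.47, adjusted p 0.185 by edgeR) for roX2, both at an unadjusted p under 0.05. Without medium replicate 2, edgeR called both lower at medium than at low density and both higher at high than at medium density. Part of the roX1 count was in fractions of shared reads in all 9 libraries. With the log2 CPM of roX1 as a covariate, edgeR called 0 of the 9 copies between high and medium density (6 at an unadjusted p under 0.05). The median of their log2 fold changes was 0.87 in place of 1.51, and the 8 copies called without the covariate had edgeR adjusted p from 0.066 to 0.244. Over all genes, edgeR called 876 with this covariate in place of 5102, so the loss of calls was not particular to the copies. With libraries scaled to roX1, 0 of the 9 copies were called (2 at an unadjusted p under 0.05), with a median of 0.32, and Rpt3R (-0.01) and Rpt6R (-1.16) had a negative change. The share of males in each pool is not given, and its part in the differences was not tested.

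Summed without Rpt6R, which was left out after its values were seen, the copies measured 11.5, 21.2 and 22.9 CPM per 100 CPM of roX1 in the low libraries, 18.95, 14.1 and 20.3 in the medium libraries and 22.3, 20.9 and 24.4 in the high libraries. Low replicate 1 stood apart, with the highest roX1 of the 9 libraries and the rank 4 for the sum of copies. Per 100 CPM of 15 genes of spermatocytes, the same sum was 17.5, 18.6 and 16.6 CPM in the low, 15.6, 16.4 and 15.98 CPM in the medium and 18.003, 16.8 and 15.4 CPM in the high libraries. The range of this ratio, 15.4 to 18.6, was narrow beside the range of the copies themselves, 26.5 to 140.04 CPM.

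The spermatocyte genes, which hold meiotic arrest regulators, testis forms of general transcription factors and transcripts stored for sperm formation, summed to 454 to 576 CPM at low, 166 to 347 CPM at medium and 428 to 908 CPM at high density. All 15 rose between medium and high density, by 0.64 (mia) to 1.93 (tomb) on the log2 scale with a median of 1.37 (edgeR adjusted p 0.00375 to 0.0289), where 21.3% of all genes were called higher. The count was 7 without medium replicate 1, 10 without medium replicate 3, 8 without high replicate 2, 8 in the fit of only the groups compared, 1 with roX1 as a covariate and 0 with libraries scaled to roX1, where the median was 0.19. Over all genes, 5102 calls became 3095 in the fit of only the groups compared and 876 with roX1 as a covariate. Against low density, edgeR called 0 of the 15 at high density (0 at an unadjusted p under 0.05, and 0 by DESeq2 and limma voom). At medium density against low, edgeR also called 0 (15 at an unadjusted p under 0.05, 9 by DESeq2 and 0 by limma voom), and 15 of 15 had non-overlapping lower libraries, as had 22.2% of all genes. Without medium replicate 2 it called 10 of the 15 lower. The early germ line genes vas, nos and bam, used in both sexes, summed to 6.95 to 10.3 CPM at low, 6.04 to 7.74 CPM at medium and 7.01 to 9.31 CPM at high density. Of these 3, edgeR called 0 in each comparison, with 1 (nos) at an unadjusted p under 0.05 in medium against low and in high against medium and 0 by DESeq2 and limma voom, and the 3 densities overlapped in their sum. In nos and bam, 2 of the 3, every medium library was below every low and every high library, while vas overlapped. Over all genes, 22.2% had every medium library below every low one, and 24.9% had every high library above every medium one. The counts of nos were only 10 to 34. The exons of vas overlap those of solo on the same strand, so its value is uncertain. Between high and medium density edgeR called 2 of the 3 higher with library totals alone, 1 higher with upper-quartile factors, with at least 10 counts in every library and without high replicate 1, and 1 lower with libraries scaled to roX1. Of the calls over all genes, 84.0% were higher with library totals alone and 66.5% with upper-quartile factors, against 53.9% with TMM factors. The part of the spermatocyte share in the level of the copies was not tested.

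**Figure D4:**
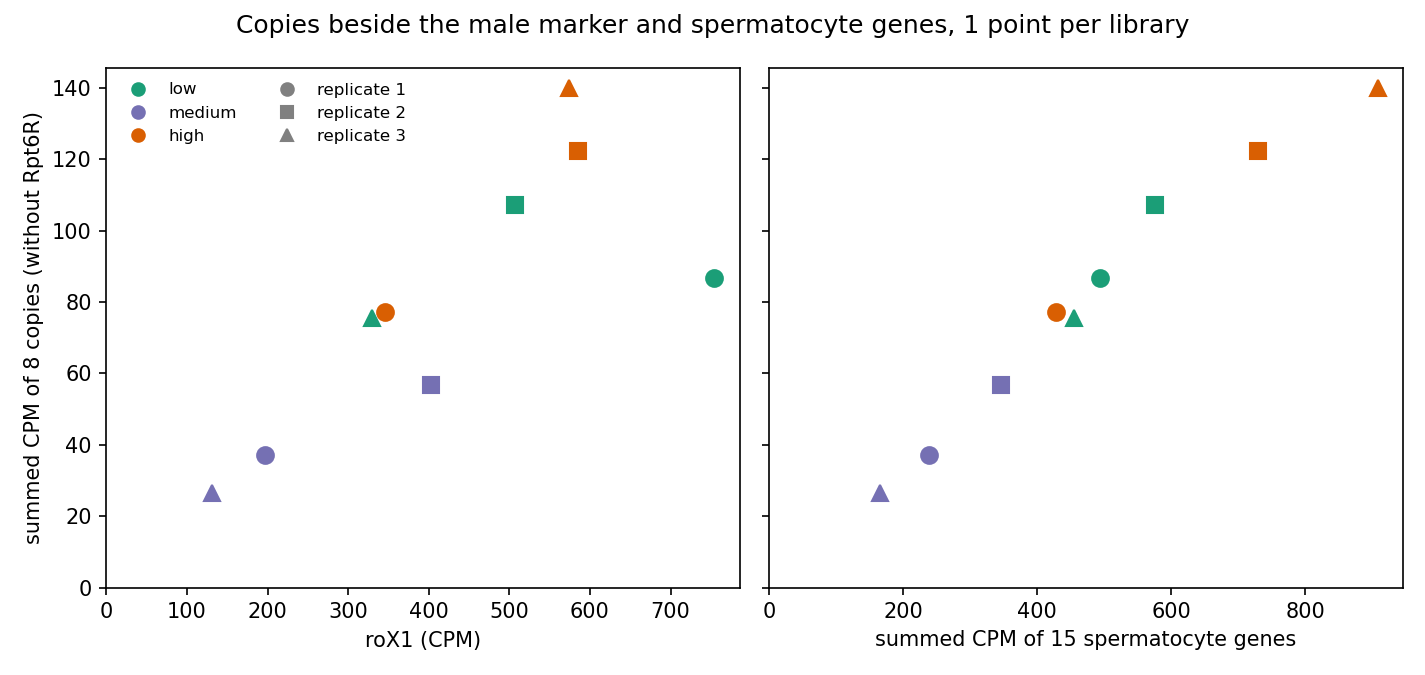
Summed CPM of 8 copies (without Rpt6R) in each of the 9 libraries against the CPM of roX1 on the left and the summed CPM of 15 spermatocyte genes on the right, on linear axes from 0; colours give the density and symbols the replicate number. The copies run from 26.5 to 140.04 CPM, and low replicate 1 lies to the right of the other libraries on the left panel only.

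Markers of other tissues also differed between densities. The salivary gland genes Sgs3, Sgs7 and Sgs8, which make glue protein, summed to 27071 to 31514 CPM at low, 25636 to 30956 CPM at medium and 11986 to 21216 CPM at high density, and edgeR called 2 of 3 lower at high than at low and 3 of 3 lower at high than at medium density. Of all 12883 genes, edgeR called 1422 lower and 539 higher at high than at low density. At high against medium density it called 18.3% of all genes lower and 21.3% higher. The fat body genes Lsp1beta, Lsp2 and Fbp1 summed to 40521 to 46315, 40808 to 63119 and 31934 to 46531 CPM, with 1 of 3 (Fbp1) lower at high density in each of these comparisons. The other fat body genes did not share its direction: against low density the log2 fold change at high density was 1.12 for Lsp1beta and 0.18 for Lsp2, neither past the threshold, and without high replicate 3 edgeR called 1 of the 3 higher. Every medium library of Lsp1beta was above every low library. The muscle genes Mhc and Act57B summed to 1009 to 1472, 1185 to 2256 and 1886 to 4935 CPM, with 2 of 2 higher at high than at low density and 0 called between high and medium density (1 at an unadjusted p under 0.05, 2 by DESeq2 and 0 by limma voom). Between medium and low density, edgeR called 0 genes of these 3 lists (0 at an unadjusted p under 0.05, and 0 by DESeq2 and limma voom). It called 0 of all 12883 genes there, so its calls cannot set these lists apart from the copies. Leaving out any 1 low library or high replicate 2 took the count against low density to 1 for the salivary gland, 0 for the fat body and 0 for muscle; without high replicate 1 the fat body and muscle counts were also 0, without medium replicate 3 they were 0 and 1, and without medium replicate 1 the muscle count was 1. Against medium density the fat body count was 0 without medium replicate 1 or high replicate 2, and the muscle count was 2 without high replicate 3. Counts over all genes also went down in some fits without a library. The part of such tissue shares in the results was not tested.

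Over the 9 libraries the copies followed each other closely on the log2 CPM scale, as a description, since all values of a library share its depth and its larvae. Pearson's r was 0.877 to 0.996 over the 28 pairs of copies without Rpt6R, and 0.445 to 0.624 over the 8 pairs with Rpt6R. Against the mean of the other copies, r was 0.927 (Prosalpha3T) to 0.992 (Rpn12R), and 0.546 for Rpt6R. Among replicates of 1 density, the median SD of the log2 CPM was larger for the copies than over all genes. It was 0.261, 0.463 and 0.410 for the copies at low, medium and high density, against 0.131, 0.152 and 0.228 over all genes. Single copies ran from 0.054 to 0.414 at low, 0.058 to 0.951 at medium and 0.339 to 0.598 at high density. The genes were not matched for level in this comparison. Of 9577 other genes with a mean of at least 5 CPM, the 5 most like the mean pattern of the copies over the 9 libraries were CG12362, CG31013, CG3345, CG12470 and CG15035 (r 0.998 to 0.999). CG12362 measured 27.6, 34.8, 26.04 CPM at low, 11.4, 17.9, 8.04 CPM at medium and 21.5, 37.8, 48.8 CPM at high density. Its medium libraries lay below all others, with high replicate 3 highest. On the same measure r ran from 0.873 (mia) to 0.992 (betaTub85D, the tubulin of the male germ line) over the 15 spermatocyte genes. It was 0.902 for roX1, 0.874 for roX2, -0.65 for Rpt3 and -0.69 for Rpt6. Among the early germ line genes r was 0.134 for vas, 0.671 for bam and 0.764 for nos.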

How the data were processed

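Poly(A)-selected, strand-specific libraries (TruSeq) from 9 pools of 10 larvae were sequenced, per the labels' protocols. The table of the whole series holds estimated counts per gene as the authors deposited them: per the file header, featureCounts 1.6.2 counted reads on the reverse strand, required both mates to map and split reads with several mapping positions into fractions. Trim Galore 0.6.4, HISAT2 2.1.0 and SAMtools 1.9 and the dm6 build are named in the submitters' processing notes. Gene IDs came from an Ensembl annotation, in which the coordinates of the 9 copies were identical to those of the file. Overlaps between genes were computed from the coordinates deposited with the counts.

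After rounding to whole numbers, the test was that of edgeR 4.0.16 under R 4.3.3 (filterByExpr, TMM factors, glmQLFit and glmQLFTest, all 9 libraries in 1 fit, Benjamini-Hochberg over 12883 of 17759 genes, threshold 0.05). CPM and log2 values used a prior count of 2 for likeness and ratios. Depth per library was 16822606 to 25141308 counts, and a floor of 3 counts covers counting error only. The copies and all lists were chosen with earlier results of these data known, so members are described by counts beside all genes and no list was tested as a set. By rule the genes named are the copies, their main subunits, roX1 and roX2, the largest change of each list and the 5 genes with the closest pattern. Outside this rule, further genes were named after their values were seen, to describe their lists. These were Prosalpha1R, Prosbeta2R1, Prosbeta2R2, Prosbeta5R1, mia, betaTub85D and the members of the short lists of early germ line, salivary gland, fat body and muscle. The tests were checked on simulated data. Alternatives were DESeq2 1.42.0, limma voom 3.58.1, RLE and upper-quartile factors, library totals alone, 2 other filters, fits of only the groups compared, the replicate number as a block, roX1 as a covariate or as the scale, and leaving out each library; leaving out high replicate 3 and medium replicate 3 together was added after seeing the data. Libraries of the same number were not paired by the labels, and their deviations from the group means correlated at -0.339 to 0.279, so the block is an alternative only. No sequence is printed.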

Additional observations from a re-analysis of the deposited data

How the results depend on the processing

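The 8 calls between high and medium density held under DESeq2, limma voom, RLE and upper-quartile factors, library totals alone and both other filters. The count of copies called was 0 with roX1 as a covariate and 0 with libraries scaled to roX1, both in this comparison and in the joint test, and it ran from 6 to 9 without 1 library at a time. Fits of only the groups compared gave 6. Without high replicate 3 and medium replicate 3, an alternative chosen after seeing the data, it was 6 in this comparison, 1 between high and low density, 0 between medium and low density and 2 in the joint test. The joint count ran from 0 to 9 without 1 library. Between medium and low density DESeq2 called 6, and without 1 library the count ran from 0 to 6; between high and low density it ran from 0 to 1. Prosalpha3T lost its call between high and medium density in 9 of 21 alternatives and Rpn12R in 7 of 21. The cause of these changes was not tested, although fits without a library have fewer samples.

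Signs reversed as follows. Between high and low density, Rpt3R ran from -0.0899 (without low replicate 3) to 0.247 without 1 library, with -0.0791 without high replicate 3 and -0.0798 without high replicate 3 and medium replicate 3, and Rpn12R ran from -7.61e-05 (without high replicate 3) to 0.487 without 1 library, with -0.00117 without both. With libraries scaled to roX1, Prosalpha4T2, Rpt3R and Rpt6R had 0.24, 0.0721 and 0.76 between medium and low density, and Rpt3R and Rpt6R had -0.0111 and -1.16 between high and medium density. Between high and medium density, Rpt6R ran from -0.0203 (without high replicate 3) to 0.322 without 1 library, and had -0.0243 without high replicate 3 and medium replicate 3.

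With the replicate number as a block, the calls among the copies were 7 between high and medium density, 7 in the joint test and 0 in the other comparisons. Of 9 libraries, 3 matched best in another density with a library of their own number. Permutations within replicate number, whose smallest p is 0.0278, gave 4 of 9 copy to main subunit ratios under 0.05, and leaving out 1 library gave 6 to 9. Counts over all genes moved by over 1.5 times in fits of only the groups compared (978 between high and low, 7 between medium and low and 3095 between high and medium density), with libraries scaled to roX1 (215 between high and low density, 1199 between medium and low density and 7538 in the joint test), with roX1 as a covariate (876 between high and medium density and 1451 in the joint test) and with DESeq2 (1575 between medium and low density). Without 1 library they went down to 807 between high and low density, 2675 between high and medium density and 990 in the joint test, and up to 1094 between medium and low density. The fit of only the groups compared has no joint test. Library totals alone raised the share of higher genes among the calls from 27.5% to 65.1% between high and low density and from 53.9% to 84.0% between high and medium density, and upper-quartile factors gave 41.6% and 66.5%. At medium density the counts of the copies go down to 21, which limits what these libraries can resolve.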

Other observations

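A further 7 duplicated subunits carry an R in their names and were not among the 9 copies. Prosbeta2R1, a copy of a beta ring subunit, measured 5.04, 5.61 and 4.33 CPM at low density, 2.31, 2.68 and 1.098 CPM at medium density and 4.6003, 7.13 and 7.98 CPM at high density. Prosbeta5R1, a copy of another beta ring subunit, measured 10.6, 12.4 and 11.3 CPM at low density, 4.76, 8.23 and 2.85 CPM at medium density and 12.7, 20.6 and 20.5 CPM at high density. In both the medium libraries lay below all others. The 6 beta copies were called higher at high than at medium density, from 1.51 (Prosbeta2R2, edgeR adjusted p 0.0103) to 1.902 (Prosbeta4R2, edgeR adjusted p 0.0251) on the log2 scale, beside 21.3% of all genes. The exons of Prosbeta4R2 overlap those of Or23a on the same strand, so its value is uncertain. Between high and low density edgeR called 0 of the 7, with 0 at an unadjusted p under 0.05 and 0 by DESeq2 and limma voom. Without medium replicate 1, 4 of the 6 beta copies were called between high and medium density. Prosalpha1R, listed under an older symbol in the file, was not called between high and medium density, with a log2 fold change of -0.15 (SE 0.08, adjusted p 0.14 by edgeR), and its counts included fractions of reads with several positions in all 9 libraries, as did those of Prosalpha1. Its pattern over the 9 libraries had an r of -0.49 with that of the copies, against 0.888 to 0.987 for the beta copies.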
